A study of Homo sapiens with 6 samples.

Results

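The regions described here were 6013 stretches of the genome that carried histone lysine acetylation (Kac) in untreated cells, lay away from every gene start, and had no acetylation or benzoylation peak in cells given sodium benzoate (SB). They came from ChIP-seq, which sequences the DNA pulled down with histones by an antibody, in cells labelled HepG2, a line from a human liver tumour. The antibodies were pan antibodies against acetylated and against benzoylated lysine (Kbz), so neither the histone nor the lysine that carried the mark is known. Control cells were grown without SB and treated cells with 10 mM SB for 24 h, and a Kac, a Kbz and an input library was made from each, which gives 6 libraries in 6 groups. The peak lists of control Kac, SB Kac and SB Kbz were used here, no peaks were called for control Kbz per the labels, and the inputs were not analysed here.

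The regions were selected on the peak lists themselves. A region was a control Kac peak on chromosomes 1 to 22 or X that was at least 1000 bp long and shared 0 bp with any SB Kac peak, any SB Kbz peak and the window of 3 kb either side of any annotated transcription start site (TSS) of GENCODE 44 on hg38. Of 70326 control Kac peaks, 20301 were distal in this sense and at least 1 kb long, and 6013 of these were absent after SB, a share of 29.6% (Wilson 95% interval 29.0 to 30.3, which covers counting error only, here and below). The share was 20.0% over all control Kac peaks of at least 1 kb (8208 of 41094) and 10.6% over those at promoters (2195 of 20793). In the other direction, 3619 of 16865 distal SB Kac peaks of at least 1 kb had neither a control Kac peak nor a Kbz peak, a share of 21.5%. Absence, length and distance from a TSS made the selection, so none of them is a result. "Absent" means that no peak was called. With 1 library per group there was no error between replicates and no test between conditions, and the peak lists do not hold the sequencing depth, so a region that lost acetylation and a region that fell below detection in a shallower library cannot be told apart.

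Acetylation neutralises the charge of lysine, is placed by acetyltransferases such as EP300 and CREBBP and is removed by deacetylases. Away from gene starts, acetylated nucleosomes commonly lie at enhancers, stretches that bind transcription factors and can act on genes at a distance. Enhancers differ more between cell types than promoters do, and they hold short motifs for factors such as AP-1, a dimer of JUN and FOS family proteins, and the ETS family.

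To show what such regions look like, sequences of 200 bp from the middle of the peak were read from hg38, 5′ to 3′. The first set came from 3 of the 5 regions with the highest fold, the peak caller's ratio of read density over background. Capitals mark matches, on either strand, to the FOXA motif TGTTTAC, the GATA motif AGATAA and the LHX and HOX motif TAATTA.
ANO10 intron, fold 5.75, chr3:43523873-43524072, plus strand: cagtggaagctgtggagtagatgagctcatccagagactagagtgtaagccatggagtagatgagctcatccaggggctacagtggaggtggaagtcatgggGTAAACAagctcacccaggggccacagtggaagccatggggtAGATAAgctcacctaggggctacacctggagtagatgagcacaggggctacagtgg
SUGCT intron, fold 5.53, chr7:40624689-40624888, plus strand: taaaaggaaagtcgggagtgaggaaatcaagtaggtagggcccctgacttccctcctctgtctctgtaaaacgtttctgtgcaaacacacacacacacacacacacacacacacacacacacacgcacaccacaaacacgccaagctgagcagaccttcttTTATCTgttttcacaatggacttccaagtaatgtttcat
HECW2 intron, fold 5.50, chr2:196399918-196400117, plus strand: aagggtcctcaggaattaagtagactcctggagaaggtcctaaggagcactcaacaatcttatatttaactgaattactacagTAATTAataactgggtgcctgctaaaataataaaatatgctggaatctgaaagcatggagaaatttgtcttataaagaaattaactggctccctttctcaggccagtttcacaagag
The ANO10 stretch repeats a short unit with variations, the SUGCT stretch holds a run of CA dinucleotides, and the HECW2 stretch is rich in A and T, with a GC content of 37.0%. The ANO10 and HECW2 stretches held 0 CpG dinucleotides in their 200 bp.

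The next sequences carry the motifs that the comparison below turns on. They are 1 of the 3 regions of highest fold with a match to the ETS motif CCGGAA (capitals TTCCGG on this strand) and the 3 of highest fold with a match to the AP-1 motif TGANTCA, where N is any base. The AP-1 set was added after the values were seen.
ETS, near HS1BP3, fold 3.79, chr2:20562005-20562204, plus strand: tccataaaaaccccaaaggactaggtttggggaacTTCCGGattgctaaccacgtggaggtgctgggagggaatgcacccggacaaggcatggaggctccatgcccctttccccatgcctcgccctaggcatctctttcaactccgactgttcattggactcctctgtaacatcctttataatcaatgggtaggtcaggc
AP-1, CALCB intron, fold 5.46, chr11:15053254-15053453, plus strand: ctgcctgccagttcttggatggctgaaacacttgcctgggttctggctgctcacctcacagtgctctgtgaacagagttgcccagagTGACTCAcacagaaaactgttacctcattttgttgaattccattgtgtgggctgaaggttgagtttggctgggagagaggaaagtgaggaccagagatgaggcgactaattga
AP-1, near OTUD1, fold 5.12, chr10:23512529-23512728, plus strand: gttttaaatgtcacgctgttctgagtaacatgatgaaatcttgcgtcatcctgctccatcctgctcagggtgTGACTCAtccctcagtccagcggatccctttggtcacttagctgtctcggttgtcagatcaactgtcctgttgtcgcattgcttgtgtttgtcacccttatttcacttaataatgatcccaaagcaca
AP-1, near CDC14A, fold 5.09, chr1:100323086-100323285, plus strand: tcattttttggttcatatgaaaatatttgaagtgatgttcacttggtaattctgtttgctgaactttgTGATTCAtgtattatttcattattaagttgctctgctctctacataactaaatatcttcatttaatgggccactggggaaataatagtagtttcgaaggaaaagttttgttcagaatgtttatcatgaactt
Of the 16-base words in the middle 500 bp of these peaks, 33.4% in the region near HS1BP3 and 1.86% in the CALCB region occurred at least 25 times in hg38. In 3 of the regions chosen by the same rules and not shown this share was higher, from 43.3% to 65.2%, so the printed examples hold less repeated sequence than the chosen ones as a whole.

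The regions that were absent after SB were mostly weak and short peaks in control cells. Their median fold was 2.78 (range 1.95 to 5.75), which put the median region at percentile 28.7 of fold in the control Kac list. Distal peaks retained after SB without Kbz had a median fold of 3.06 and percentile 47.3 (n = 9313), and those retained with a Kbz peak had 4.06 and 80.3 (n = 4905). The median length was 1374 bp (range 1000 to 8816), against 1859 and 2482 bp for the retained sets. Peaks seen only after SB were of similar kind, with a median length of 1304 bp and percentile 24.7 in the SB Kac list. Of the absent regions, 1274 (21.2%) were above the list's median fold and 39 (0.649%) were in its top decile. The median −log10 q, the peak caller's significance averaged over the peak, was 2.27, and 358 regions (5.95%) reached 5, against 18.8% and 69.5% of the retained peaks without and with Kbz.

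**Figure D1:**
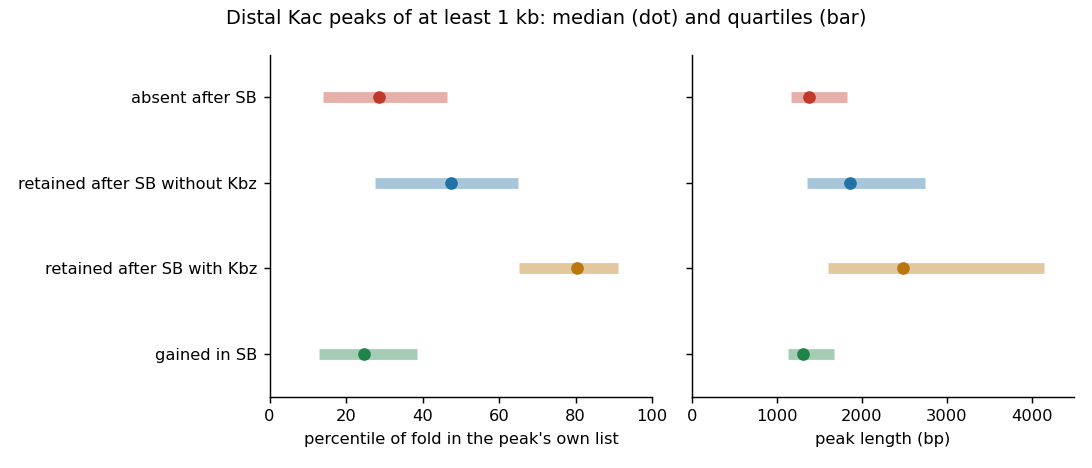
Median (dot) and quartiles (bar) of the percentile of fold in a peak's own list (left, 0 to 100) and of peak length in bp (right) for distal Kac peaks of at least 1 kb. The absent regions (median percentile 28.7, 1374 bp) lay below both retained sets and close to the peaks gained in SB (24.7, 1304 bp).

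The share of distal peaks that were absent fell at every step of fold. It was 59.1% (56.8 to 61.3) in the lowest decile of the control Kac list, 31.1% (29.2 to 33.0) in the fifth decile and 2.39% (1.75 to 3.25) in the highest, 39 of 1634 peaks. It also fell with length, from 48.2% in the shortest length bin (2194 of 4548 peaks) to 3.49% of peaks of at least 5000 bp. A longer peak offers more bases on which any SB peak can fall, so the trend with length follows in part from the selection.

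**Figure D2:**
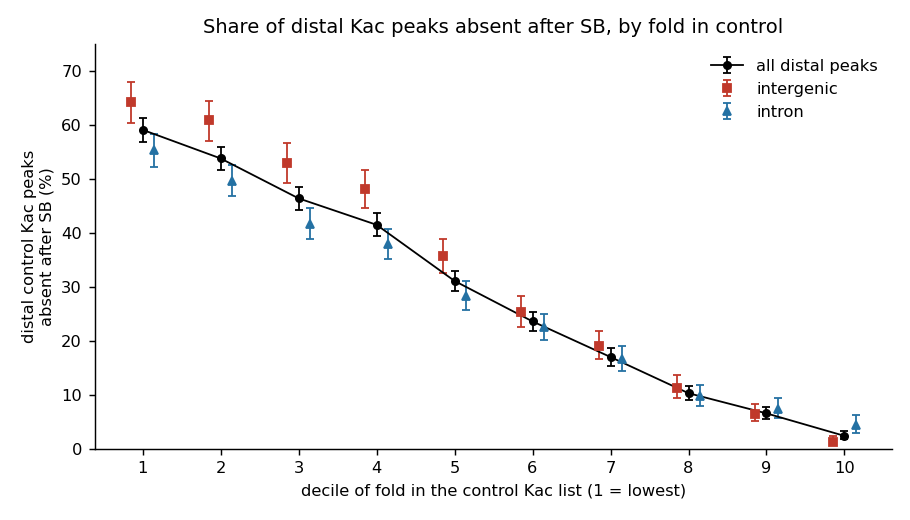
Share of distal control Kac peaks of at least 1 kb absent after SB (%, y axis) by decile of fold in the control Kac list (x axis, 1 the lowest), for all distal peaks and for those in intergenic sequence and in introns; bars are Wilson 95% intervals. The share falls from 59.1% to 2.39%, and intergenic peaks sit above intronic ones in the lower deciles and below them in the highest.

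Just inside the selection limits, 12 regions were exactly 1000 bp long, and 10 otherwise like peaks of 999 bp were left out. In all, 12103 absent distal peaks were shorter than 1 kb. The smallest gap from a region to an SB Kac peak was 2 bp, and the smallest overlap of a retained peak was 3 bp. Of the 14218 retained distal peaks, 4759 shared under 50% of their length with SB Kac and 286 under 10%. The distance to a TSS was 3002 bp for the nearest region and 2998 bp for the farthest absent peak that was left out as promoter. Another 70 distal peaks had no SB Kac but did have Kbz, and were not included.

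Many absent regions had SB Kac peaks nearby, though how many depends on the lists used. No background share was computed for other sites, so nearness to SB Kac is not read as a trait of these regions. The median gap to the nearest SB Kac peak was 6659 bp (quartiles 2739 and 18878). An SB Kac peak lay within 1 kb of 354 regions (5.89%), within 10 kb of 3678 (61.2%, 59.9 to 62.4), and within 50 kb of 5393 (89.7%). The share within 10 kb was 37.2% for regions whose −log10 q reached 5 and 19.0% with lists of 15000 peaks each. The SB Kbz list held 24308 peaks against 63282 in SB Kac, and a shorter list gives larger gaps. To Kbz the median gap was 25779 bp, with a peak within 10 kb of 1606 regions (26.7%). The retained peaks without Kbz had a median gap to Kbz of 18461 bp. The farthest region from any SB Kac peak lay 1528746 bp away.

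**Figure D3:**
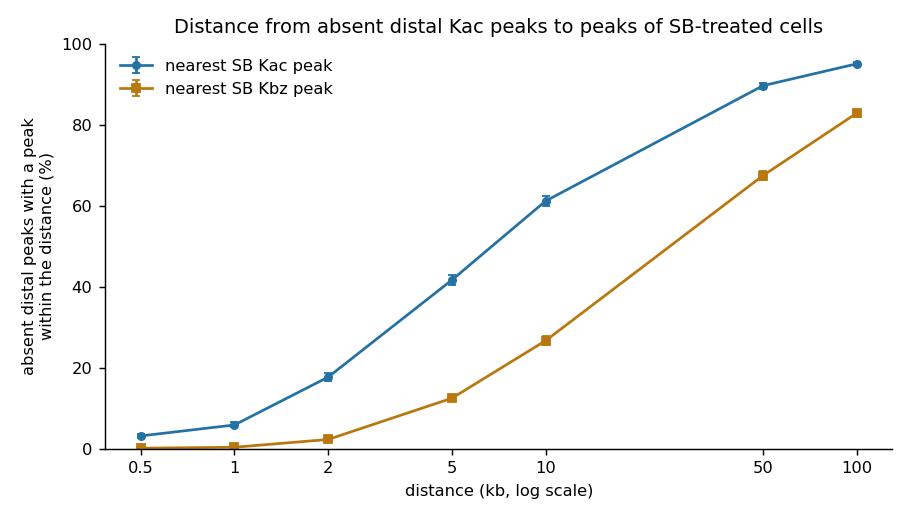
Share of the 6013 absent regions (%, y axis) that had an SB Kac or an SB Kbz peak within a given distance (kb, logarithmic x axis), with Wilson 95% intervals. At 10 kb the share was 61.2% for Kac and 26.7% for Kbz.

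Of the absent regions, 2412 (40.1%, 38.9 to 41.4) were intergenic, 2912 (48.4%) were in introns and 689 (11.5%) overlapped an exon. Retained peaks without Kbz were intergenic less often (34.4%, 33.4 to 35.4), retained peaks with Kbz more often (47.5%, 46.1 to 48.9), and peaks gained in SB least often (24.6%, 23.2 to 26.1). Over all strengths the share absent hardly differed by location, with 30.2% (29.2 to 31.2) in intergenic sequence and 29.6% (28.8 to 30.6) in introns. At like fold it did: in the lowest decile 64.2% (60.3 to 68.0) of intergenic and 55.4% (52.3 to 58.4) of intronic peaks were absent, and in the fourth 48.2% (44.7 to 51.6) and 37.9% (35.1 to 40.8). In the eighth decile the intervals overlapped (11.3% and 9.71%), and in the highest the order was opposite, with 1.29% (0.720 to 2.29) of intergenic and 4.32% (2.92 to 6.34) of intronic peaks absent. Regions also lay far from protein-coding genes more often than other distal peaks. The nearest coding TSS was over 100 kb away for 22.5% (21.5 to 23.6), against 17.8% (17.0 to 18.6) and 14.8% (13.8 to 15.8) of the retained peaks and 10.4% (9.49 to 11.5) of the gained ones.

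The nearest protein-coding gene mostly kept acetylation at a promoter of its own, the window around any of its annotated starts. This held in both conditions for 5212 regions (86.7%). It was not particular to them: the nearest gene had promoter Kac after SB for 88.4% (87.5 to 89.2) of the regions. For retained peaks the share was 92.1% (91.6 to 92.7) without Kbz and 90.4% (89.6 to 91.2) with it. The promoter had Kbz after SB for 4515 regions (75.1%, 74.0 to 76.2), against 80.9% (80.1 to 81.7) for retained peaks without Kbz and 75.8% (74.6 to 77.0) for those with it. Among regions whose nearest gene had promoter Kac in control cells, 192 of 5404 (3.55%, 3.09 to 4.08) were next to a gene that had it in control cells only. That share was 2.08% (1.80 to 2.40) for retained peaks without Kbz and 2.61% (2.18 to 3.12) for those with it. For 507 regions (8.43%, 7.76 to 9.16) the nearest gene had no promoter Kac in either condition, against 5.94% (5.48 to 6.44) and 7.18% (6.49 to 7.93) for the retained peaks without and with Kbz.

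The share absent varied among chromosomes. It was highest on chromosome 5, with 424 of 1254 distal peaks (33.8%, 31.2 to 36.5), and lowest on chromosome 16, with 105 of 508 (20.7%, 17.4 to 24.4). The order depended on fold: in the lower 5 deciles chromosome 18 was highest (55.7%) and chromosome 17 lowest (36.9%), with 51.5% on chromosome 5 and 38.6% on chromosome 16. Over the 23 chromosomes it was lower where coding genes were denser, with Pearson's r of -0.51 and Spearman's rho of -0.55, and lower where the distal peaks had more GC, with r of -0.60 and rho of -0.56. Gene density and GC content go together, and all points come from the same pair of libraries.

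Another absent region lay within 50 kb of 2677 of them (44.5%), but of 5.59% when only regions whose −log10 q reached 5 were kept, 15.9% at a length of at least 2000 bp and 18.8% with 15000 peaks per list. In the full lists the neighbouring distal peak was also absent in 33.8% (33.0 to 34.7) of the cases beside an absent region, against 27.8% (27.3 to 28.4) beside the other distal peaks. Each pair of neighbours was counted from both sides, so these intervals are too narrow, and neighbours were not matched for fold. The regions were nearest to 3520 of 19962 protein-coding genes. Of these genes, 2322 had a single absent region and 659 had a pair. The most were at FGGY, which encodes a carbohydrate kinase, with 19 of the 29 distal peaks nearest to it absent. EBF1, a transcription factor of B cell development, had 17 of 26 and KLF6, a zinc finger transcription factor, also had 17 of 26. PCDH9, a cell adhesion protein of the protocadherin family, had 15 of 59, a share of 25.4%, which was below that of all distal peaks. ADRA1B, the alpha-1B adrenergic receptor, had 14 of 17, and LRMDA also had 14, but of 59 (23.7%). At FGGY, EBF1 and KLF6 the promoters, counted over all annotated starts of a gene, had control Kac, SB Kac and Kbz. At the first start of ADRA1B there was a control Kac peak and no SB Kac peak nearer than 12.9 kb, at a start farther downstream there was Kac in both conditions, and no start had Kbz. Among the 1170 genes nearest to at least 5 distal peaks, all were absent at 1 gene, ATP1B1, which encodes a subunit of the sodium pump, and none at 157. ATP1B1 was named after its values were seen. Its 5 regions had folds of 2.25 to 2.56, all at or below percentile 11.8, and its promoter kept Kac.

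Around FGGY, an 805 kb stretch held 60 control Kac peaks, 25 SB Kac peaks and 7 Kbz peaks. The 19 absent regions there had folds of 2.07 to 3.87, and their distances to the nearest FGGY TSS ran from 4771 to 249371 bp. Of these, 17 lay in introns of any annotated gene, some of them upstream of FGGY. The window of 500 kb with the most absent regions, chr1:59000001-59500000, held the start of FGGY and a long stretch upstream of it, with 15 of 27 distal peaks. The next were chr5:158000001-158500000, beside EBF1 and CLINT1, with 14 of 21, and chr5:159500001-160000000, which holds ADRA1B, with 14 of 19. The window chr10:117500001-118000000 around EMX2, a homeobox gene of brain and kidney development, also had 14, of 22. No distal peak was gained in the first 3 of these windows.

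The longest run of consecutive distal peaks that were all absent was also at ADRA1B, with 11 in a row over 140511 bp (chr5:159784572-159925082). Their folds were 2.51 to 3.25. That stretch held 18 control Kac peaks, 2 SB Kac peaks and 1 Kbz peak. It included the longest region of all, 8816 bp in an intron of LINC01847 (chr5:159821749-159830564, fold 3.03), 47438 bp from the nearest SB Kac peak. The next run held 9 regions over 719221 bp near ATP1B1, DPT, F5 and NME7, a stretch that held 34 control Kac and 14 SB Kac peaks. Over the genome, 2677 absent regions stood alone between retained distal peaks.

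**Figure D4:**
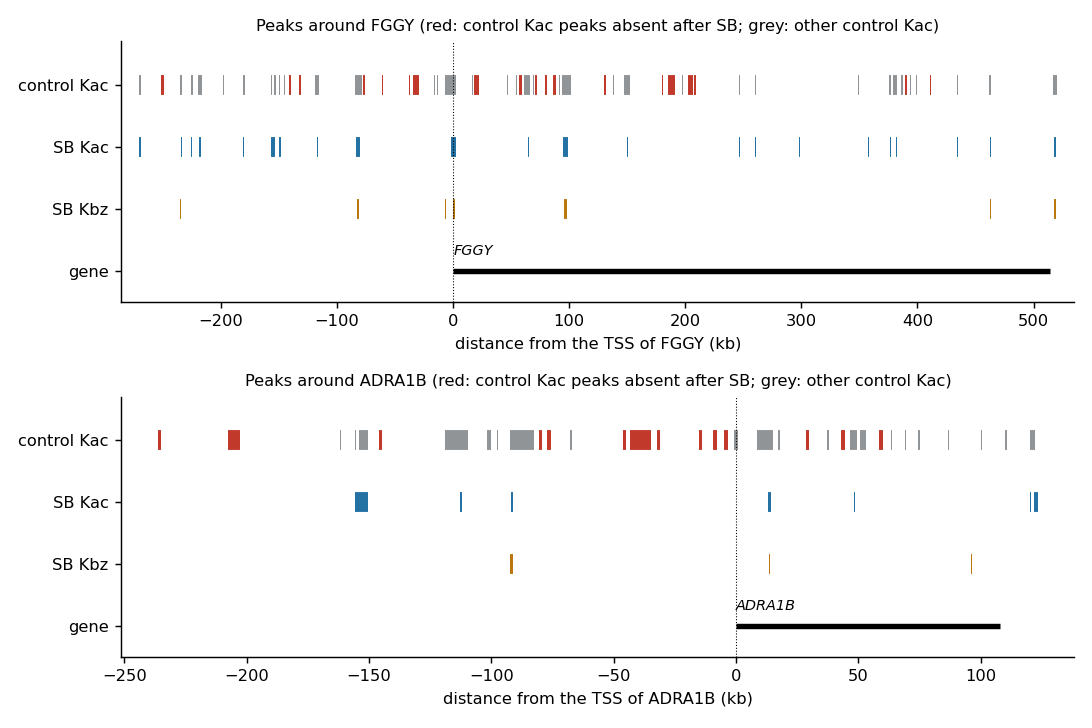
Peaks of the 3 lists around FGGY (top, 805 kb) and ADRA1B (bottom, 384 kb), by distance in kb from the gene's TSS (dotted line). Bars are drawn to scale, with SB Kac in blue, SB Kbz in ochre and the gene in black. Absent regions as selected here are red, and all other control Kac peaks are grey. Grey therefore includes peaks that overlap no SB peak but were too short or too near a TSS to be selected. The 19 absent regions at FGGY lie among grey peaks, only some of them retained. At ADRA1B, 14 red bars lie where the SB Kac list holds 7 peaks in all.

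Most of the strongest regions lay in introns. The region of highest fold, 5.75, lay in an intron of ANO10, an anoctamin membrane protein (chr3:43522666-43525280, −log10 q 13.3). The nearest SB Kac peak was 95666 bp away, and the ANO10 promoter kept Kac and had Kbz. Next came an intron of GRIK5, a kainate receptor subunit (fold 5.65), 4762 bp from SB Kac. An intron of SUGCT, a mitochondrial CoA-transferase (chr7:40623992-40625586, fold 5.53), was 18926 bp from SB Kac, and an intron of HECW2, a ubiquitin ligase (chr2:196399215-196400821, fold 5.50), was 67846 bp from it. The region in an intron of PIGL (fold 5.49) lay 10258 bp from the TSS of NCOR1, a corepressor that works with deacetylases. An exon of the noncoding gene LINC02241, near the cadherin gene CDH18 (chr5:20677385-20681396), also had 5.49. The other 4 of the first 10 lay in an intron of CALCB, which encodes a calcitonin gene-related peptide (chr11:15052439-15054268, fold 5.46), and near LMNTD1 (5.39), the neuropeptide gene NPVF (5.39) and CD93 (5.32). Their percentiles of fold in the control list were 95.6 to 97.7. The promoters of all these nearest genes had Kac in both conditions except at NPVF, with none in either, and CD93, with Kac in SB only.

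Among the longest regions, the one with the highest fold was an intergenic stretch of 8193 bp beside CYP2C18, a cytochrome P450 gene (chr10:94668781-94676973, fold 4.78, −log10 q 11.9). No SB Kac peak lay within 119230 bp of it, and the CYP2C18 promoter had no peak in any of the 3 lists. The others were 8138 bp near CLINT1 (chr5:158260601-158268738, fold 3.80), 7751 bp near the neural adhesion gene NCAM1 (chr11:112652561-112660311, fold 2.94) and 7713 bp near KLHL1 (chr13:70468579-70476291, fold 2.88).

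The label of the cells was set against lists of marker genes, using Kac at promoters. Of 20 genes for liver products, 10 had Kac in control and 11 after SB, and 9 had none, among them ALB, APOB, SERPINA1, FGA, FGB, FGG and HP, which encode albumin, apolipoprotein B, antitrypsin, the fibrinogen chains and haptoglobin. Of 8 liver transcription factors, 6 had Kac, with none at FOXA2 and NR1H4. By comparison 12 of 14 kidney development factors, 8 of 14 neuronal and 5 of 10 blood markers had Kac in control cells. So did all 15 AP-1 subunits and immediate early genes and all 16 deacetylases and acetyltransferases. The share over all coding genes is not given here, so these counts are not read as naming another cell type. The liver lists were thus mixed: APOA1, TTR, TF, HNF4A and CEBPA had Kac in both conditions, while no peak was called at albumin, apolipoprotein B and fibrinogen, whose products HepG2 is known to secrete. On these genes the data go against the label, so the cells are called by their label only.

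Near genes of known pathways (within 100 kb of a TSS), the share of distal peaks that were absent was read against the 28.1% (27.5 to 28.8) of the 16557 distal peaks within 100 kb of any coding TSS. It was 7 of 22 (31.8%) near liver products and 6 of 16 (37.5%) near liver transcription factors, where the strongest was 45134 bp from CEBPA (fold 4.40). It was 13 of 51 (25.5%) near kidney development factors, including 4 of 9 near EMX2, 5 of 15 (33.3%) near neuronal markers and 9 of 27 (33.3%) near blood markers. All 3 distal peaks near GAP43, a growth cone protein, were absent.

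Most signalling and enzyme lists were below that share. Near AP-1 subunits and immediate early genes 15 of 65 were absent (23.1%, 14.5 to 34.6), with 3 of 5 at FOS, 1 of 15 at ATF3 and 0 of 2 at JUN. Near genes of the YAP and TEAD pathway, which controls growth, 9 of 51 were absent (17.6%, 9.57 to 30.3), with 2 of 11 at TEAD1 and 0 of 7 at YAP1. Near Wnt genes it was 20 of 72 (27.8%, 18.8 to 39.0), close to it, with 4 of 17 at TCF7L2 and 4 of 10 at ZNRF3. Near TGF-beta and BMP genes it was 14 of 80 (17.5%, 10.7 to 27.3), an interval below 28.1%. TGFB2, a ligand, had 5 of 8, while the inhibitor SMAD6 had 1 of 21 and the target ID3 had 0 of 11. Near insulin and IGF receptors and substrates 7 of 36 were absent (19.4%, 9.75 to 35.0), of which IGF1R held 5 of 21 and INSR 0 of 5. Near deacetylases and acetyltransferases it was 13 of 61 (21.3%, 12.9 to 33.1), with all 3 at HDAC9 and 3 of 19 at KAT6B. These lists are small, and apart from the TGF-beta and BMP list the interval of each of these lists reached above 28.1%. The low value of that list rests largely on the many peaks at SMAD6 and ID3. The intervals count peaks of the same locus as independent, and no list was matched for fold.

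In sequence, the absent regions were poorer in CpG than retained peaks. In the middle 500 bp, the median GC content was 44.4%, against 44.6% for retained peaks without Kbz and 48.2% for those with it. The mean number of CpG per 100 bp was 1.11, 1.26 and 2.06 in the same order, and 2.47 over all control Kac peaks of at least 500 bp. The difference from all retained peaks grew with fold: in the lowest decile the means were 0.980 and 1.08, and in the highest 0.723 and 2.19. The highest decile held only 39 absent windows. Of its 1595 retained peaks 1358 had Kbz, and retained peaks with Kbz were the set richer in CpG. This trend was not split by Kbz, so fold and Kbz are not told apart here. Windows in which at least 50% of the 16-base words occurred at least 25 times in hg38 were more frequent among absent regions (615, 10.2%) than among retained peaks (1056, 7.43%), with intervals that did not overlap. The word count was added after the sequences were seen. The difference held in the lowest 3 deciles of fold (9.91% against 6.67%, again without overlap) and was not seen in the upper 3 (7.10%, 4.89 to 10.2, against 7.61%, 6.91 to 8.37). Reads that mapped to several places were not kept by the authors, and the part of repeated sequence in the absences was not tested.

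Of the motifs searched on both strands of the middle 500 bp, ETS differed most between absent and retained peaks. A match to CCGGAA was found in 244 absent regions (4.06%, 3.59 to 4.59), in 4.69% (4.28 to 5.14) of retained peaks without Kbz and in 8.42% (7.68 to 9.23) of those with it, against 9.96% of all control Kac peaks of at least 500 bp. The motif holds a CpG, and at like GC content the intervals of absent and retained peaks were apart only from 50 to 55% GC (4.74%, upper limit 6.40, against 8.27%, lower limit 7.21). From 60% GC up the shares were 10.1% (6.57 to 15.2) and 17.3% (15.2 to 19.6), with limits that touch. The other motifs differed less from all retained distal peaks. The GATA motif was in 29.3% (28.2 to 30.5) of absent regions and 28.8% (28.1 to 29.6) of retained peaks, with 30.7% in those without Kbz and 25.2% in those with it. The E-box CAGCTG was in 23.2% and 24.7%, the FOXA motif in 7.18% and 7.44% and the RUNX motif TGTGGTT in 9.18% and 9.19%. The TEAD motif ACATTCC was in 7.17% and 7.53% and the SOX motif ACAAAGG in 8.91% and 9.12%. The HNF4A motif CAAAGTCCA was in 0.682% and 0.605%, and the CTCF motif in 0.898% (0.689 to 1.17) of absent regions against 1.04% (0.855 to 1.27) of retained peaks without Kbz and 108 of the 4905 with it. The REST motif was found in 0 absent regions, which is a statement about these letters in this window only.

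AP-1 matches were about as frequent in absent regions as in all retained peaks. They were more frequent at like fold, with intervals apart in the fifth and eighth deciles only, but not at like GC content over all folds. The motif TGANTCA was in 1322 absent regions (22.0%, 21.0 to 23.1), in 21.2% (20.4 to 22.0) and 20.0% (18.9 to 21.1) of the retained sets, and in 18.3% of all control Kac peaks of at least 500 bp. Matches rose with fold, and absent regions had the lower folds. The share was higher in absent regions in each of the 10 deciles of fold, but hardly in the third (19.6% against 19.5%). The difference was little in the lowest (18.7%, 16.5 to 21.2, against 17.1%, 14.5 to 20.0). The intervals were apart only in the fifth (23.5%, 20.5 to 26.8, against 18.2%, 16.4 to 20.2) and in the eighth decile. In the eighth decile it was in 69 of 207 absent (33.3%) and 412 of 1810 retained peaks (22.8%), and in the highest decile in 35.9% (22.7 to 51.6) and 23.7% (21.7 to 25.8). Over the upper 3 deciles, grouped after the values were seen, it was in 122 of 366 absent regions (33.3%, 28.7 to 38.3) and 1181 of 5113 retained peaks (23.1%, 22.0 to 24.3). Of the retained peaks there, those without Kbz had it in 27.3% (25.3 to 29.4), an interval that overlaps that of the absent regions, and those with Kbz in 20.9% (19.6 to 22.3). At a GC content under 45% the shares were 37.4% (31.4 to 43.8) and 25.9% (24.1 to 27.8), and at 45% or more they were 26.5% (19.8 to 34.5) and 21.1% (19.7 to 22.6), with overlapping intervals. Retained peaks without Kbz had 28.0% (25.3 to 30.9) and 26.4% (23.4 to 29.6) at these GC contents. Leaving out windows rich in repeated words gave 34.4% and 23.6%. Over all folds, the intervals of absent and retained peaks overlapped in every GC bin. The shares were 25.7% and 24.1% under 40% GC, and 6.38% (3.69 to 10.8) and 12.0% (10.2 to 14.1) from 60% up. The regions in CALCB, near OTUD1 and near CDC14A, printed above, have the highest fold among those with an AP-1 match in the middle 200 bp, outside exons and chromosome 8.

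**Figure D5:**
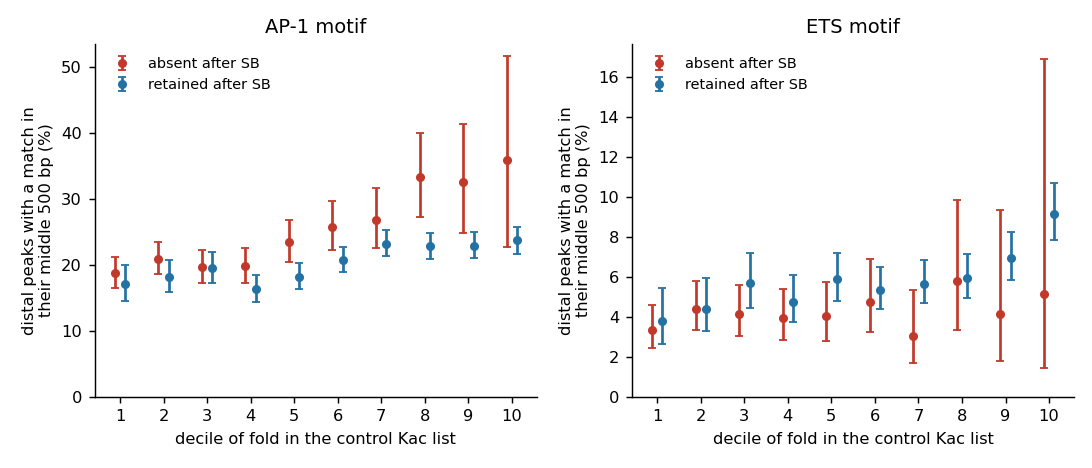
Share of distal peaks with a match in their middle 500 bp (%, y axes, both from 0) to the AP-1 motif (left) and the ETS motif (right), by decile of fold in the control Kac list, for absent (red) and retained (blue) peaks; bars are Wilson 95% intervals. In the eighth decile 33.3% of absent and 22.8% of retained peaks had an AP-1 match, while for ETS the intervals of the absent regions are wide in the upper deciles.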

How the data were processed

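Chromatin of control and SB-treated cells was digested with micrococcal nuclease, and the authors sequenced single reads, aligned them to hg38 with Bowtie2 2.2.6, kept unique reads, removed duplicates with SAMtools 0.1.19 and called peaks per library with MACS2 2.1.1. The stated FDR was 0.01, but the lowest deposited −log10 q is 1.31, so the lists reach beyond it. Broad settings are not given in the sources used here. The deposited score was not used, the deposited fold ratio ranked peaks within their list, and thresholds were set on −log10 p and −log10 q as deposited. Depth is unknown. Excluding 3 control Kac peaks outside the main chromosomes, overlaps, gaps, motif matches and word counts were computed with Python 3.11.15, numpy 2.4.6 and pandas 2.3.3. Of 1000 intervals planted with 1 bp inside a control Kac peak, 1000 were found. In the real lists, 0 of 6 overlap counts differed from bedtools 2.31.1.

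Members and gene lists were chosen with earlier results of these data known. Named are the 10 regions of highest fold, the 5 longest, the 5 genes with most, the 3 densest 500 kb windows, the longest run, the extreme chromosomes and the strongest region per list. Sequence was to be shown for the 5 strongest outside exons and chromosome 8 and for 3 with the motif that differed most; 4 of these are not reported here.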

Additional observations from a re-analysis of the deposited data

How the results depend on the processing

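No paired analysis was possible because the labels give 1 library per group, which also means that none could be left out. The alternatives gave 48 values of 6 results: 12 stayed close to the reported ones and 36 moved, and the cause was not tested except where the alternative keeps fewer peaks by construction. The number of absent regions (6013) was 358 with a control −log10 q of at least 5, 1613 with 15000 peaks per list, 10766 when overlap under 50% counted as absent and 1167 with a length of at least 2000 bp. In that order, the share absent (29.6%) was 6.48%, 39.2%, 53.0% and 14.0%. It was 32.4% with −log10 q of at least 2 in all lists, 27.8% with SB peaks extended by 1 kb and 27.8% with TSSs of coding transcripts only. The intergenic share (40.1%) was 45.8% at a control −log10 q of 5, 46.2% with 15000 peaks, 42.8% at 2000 bp, 35.4% with coding TSSs and 37.6% with a window of 1 kb. The share within 10 kb of SB Kac (61.2%) was 54.1% (−log10 q of 2), 37.2% (5), 19.0% (15000 peaks), 58.7% (extended), 78.1% (50% overlap), 62.5% (coding TSSs) and 62.9% (1 kb window). The share within 50 kb of another region (44.5%) was 43.0%, 5.59%, 18.8%, 43.1%, 62.8%, 15.9% (2000 bp), 49.1% and 47.2% likewise. The share whose nearest gene had SB Kac at its promoter (88.4%) was 86.2%, 81.8% and 64.8% under the first 3 of these, 89.3% at 50% overlap and 87.1% at 2000 bp. Lists that lack depth limit all of these counts.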
